A study of Homo sapiens with 8 samples.

Results

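CRYBB1, the gene of the lens protein beta-B1 crystallin, was examined in LP-1 myeloma cells together with 7 further genes, which made 8 of the 18564 genes in the deposited table. CRYBB1 was chosen by its measured values, because it was higher in every library of bortezomib-resistant (BR) cells than in every library of wild-type (WT) cells. The other 7 genes were taken by name and position: CRYBA4, CRYBB2 and CRYBB3 are further beta-crystallin genes, and TPST2, TFIP11, SRRD and HPS4 lie beside CRYBB1 on chromosome 22. The question was whether the rest of the family, or the rest of the locus, moved with CRYBB1.

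LP-1 is an established human multiple myeloma cell line that carries the t(4;14) translocation. BR cells are its derivative cultured with bortezomib, a proteasome inhibitor, for 2 months, and WT cells are the parental line. Both lines were given either vehicle or, for 24 h, 25 nM of SI-2, a compound that inhibits the coactivator SRC-3. The labels give no time for the vehicle libraries. The 4 resulting conditions have 2 libraries apiece. The titles call the vehicle DMSO, while the treatment field of the WT vehicle libraries gives no treatment at all. BR cells are 1 derived line, the labels do not say whether it is a clone or whether bortezomib was present at harvest, and the labels do not say whether the 2 libraries of a condition came from separate cultures. The study describes the BR libraries as independent experiments, and in the sources used here nothing of the kind was found for the WT libraries. The p-values measure only the spread between these libraries, which for WT libraries at least may be technical. As BR cells are 1 derived line, p-values between the lines do not measure the spread between resistant lines.

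Beta-crystallins are structural proteins of the ocular lens, where they are packed at high concentration in fibre cells and keep the tissue clear. Acidic chains such as that of CRYBA4 associate with basic chains such as those of CRYBB1, CRYBB2 and CRYBB3. Lens expression of crystallin genes is controlled by transcription factors that include PAX6, SOX2, PROX1 and large Maf proteins, and one of the large Maf proteins, MAF, is also known in myeloma. The neighbouring genes have other roles: TPST2 encodes a Golgi enzyme that sulfates tyrosines of secreted proteins, TFIP11 a factor of spliceosome disassembly, and HPS4 a subunit of BLOC-3, a complex needed for lysosome-related organelles.

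The libraries held 17997771 to 18570027 estimated counts each. Plasma cell genes were strongly expressed in both lines, with a mean of 3354 FPKM (counts per gene length and library size, as computed by the authors) for the immunoglobulin joining chain gene JCHAIN, 497 for XBP1, 444 for MZB1, 283 for TNFRSF17 and 175 for IRF4, and the t(4;14) genes FGFR3 (245 FPKM) and NSD2 (89.4 FPKM) were present. None of the 10 plasma cell genes passed the test between the lines (edgeR), which 0.362% of all genes passed. An unadjusted p under 0.05 was held by 2 of the 10 and by 1942 of all 13520 genes. FGFR3 and NSD2 had every BR library above every WT library, as had 3.84% of all genes tested. The log2 fold changes of FGFR3 and NSD2 were 0.58 (adjusted p = 0.116) and 0.37 (adjusted p = 0.15) with edgeR. DESeq2 called both (adjusted p = 0.00691 and 0.0139), and it called 408 genes where edgeR called 49. Lens cell markers were at most weakly detected: LIM2 and GJA3 had at most 1 count in any library, and the 8 listed lens cell markers summed to 2.85 to 4.42 FPKM in WT and 3.16 to 4.32 FPKM in BR libraries. The T cell markers CD3E and CD2 summed to at most 0.22 FPKM, and the monocyte markers CD14, LYZ and CSF1R to 1.65 to 2.99 FPKM in WT and 2.20 to 3.28 in BR libraries. One library stood apart: the fibroblast markers COL1A1, COL1A2 and DCN summed to 15.14 FPKM in the second BR SI-2 library and to 0.03 to 0.10 FPKM in the other 7. Values without that library are given below.

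The beta-crystallin genes are shown by the 250 bases before their RefSeq start sites (GRCh38.p14), because each holds a short motif there that the neighbours mostly lack. Capitals mark matches to TGCTGA on either strand, the half-site bound by Maf proteins (TCAGCA on the printed strand for a match to the other strand), and to the core promoter motif TATAAA on the printed strand only. The windows lie at chr22:26618028-26618277 (minus strand, CRYBB1), chr22:26621713-26621962 (plus strand, CRYBA4), chr22:25219389-25219638 (plus strand, CRYBB2) and chr22:25199608-25199857 (plus strand, CRYBB3).
CRYBB1: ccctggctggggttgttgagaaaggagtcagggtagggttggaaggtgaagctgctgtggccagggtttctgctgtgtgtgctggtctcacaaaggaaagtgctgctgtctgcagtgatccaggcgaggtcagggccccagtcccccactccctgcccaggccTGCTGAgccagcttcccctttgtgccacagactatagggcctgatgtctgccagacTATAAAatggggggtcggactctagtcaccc
CRYBA4: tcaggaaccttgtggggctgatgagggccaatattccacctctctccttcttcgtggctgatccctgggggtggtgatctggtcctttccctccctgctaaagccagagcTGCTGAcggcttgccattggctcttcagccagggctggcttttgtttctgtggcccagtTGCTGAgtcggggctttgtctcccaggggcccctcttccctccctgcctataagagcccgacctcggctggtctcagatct
CRYBB2: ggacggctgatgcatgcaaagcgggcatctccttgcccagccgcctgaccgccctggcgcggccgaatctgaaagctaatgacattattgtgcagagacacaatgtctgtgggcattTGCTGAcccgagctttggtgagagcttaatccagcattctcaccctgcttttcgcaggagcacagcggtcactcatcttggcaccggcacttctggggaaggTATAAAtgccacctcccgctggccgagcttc
CRYBB3: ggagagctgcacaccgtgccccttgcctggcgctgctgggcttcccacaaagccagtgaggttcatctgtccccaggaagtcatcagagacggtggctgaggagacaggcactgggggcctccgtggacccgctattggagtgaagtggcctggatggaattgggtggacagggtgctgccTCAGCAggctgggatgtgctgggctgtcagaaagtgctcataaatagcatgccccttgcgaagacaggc

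All 4 beta-crystallin windows held the Maf half-site, which 14% of 35116 promoter windows of the same length held. In CRYBB1 it began 87 bases before the start, in CRYBA4 140 and 81 bases before, in CRYBB2 133 bases before and in CRYBB3 69 bases before. The TATAAA motif began 31 bases before the start in both CRYBB1 and CRYBB2, and 6.8% of all windows held one. Among the neighbours, the windows of TPST2 (2 starts), TFIP11 and SRRD held no such half-site, and 1 of the 4 starts of HPS4 did. The GC content of the windows was 57.2% to 60.8% in the crystallin genes, with a median of 58% over all promoter windows. In the neighbours it was 58.8% and 74.0% (TPST2), 62.8% (TFIP11), 73.2% (SRRD) and 39.6% to 78.4% (HPS4). The HPS4 window with the half-site had 43.2%, and whether GC content bears on the matches was not tested. A match of letters is not a site that was shown to be bound. Whether the half-site has any part in the level of these genes was not tested. From the starts shown above, CRYBB1 and CRYBA4 are transcribed away from each other, with 3936 bases between these starts. The RefSeq interval of CRYBA4 with its predicted transcripts spans CRYBB1, so this layout need not hold for every model of CRYBA4.

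CRYBB1 was at a low level in WT cells and at a moderate one in BR cells. The counts on CRYBB1 were 31 and 20 in the WT vehicle libraries, 27 and 28 with SI-2, 166 and 125 in the BR vehicle libraries and 139 and 143 with SI-2. On the scale of CPM, counts relative to library size after TMM scaling, which corrects for library size and composition, WT libraries had 1.76 and 1.11 with vehicle and 1.48 and 1.56 with SI-2. BR libraries had 9.37 and 6.63 with vehicle and 7.61 and 7.46 with SI-2. The groups were widely apart, with the lowest BR value at 6.63 and the highest WT value at 1.76, and this is what the gene was chosen for. The mean was 1.48 ± 0.27 CPM (SD, n = 4) in WT and 7.77 ± 1.15 CPM (SD, n = 4) in BR cells, a fitted log2 fold change of 2.39 (SE 0.19), or 5.24-fold. Since CRYBB1 was selected on this difference, the value is a description and no test of it is given. In bulk RNA, more RNA in each cell and more cells with the RNA cannot be told apart.

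Per gene length, CRYBB1 was at 1.13 to 1.67 FPKM in WT and 7.31 to 9.37 FPKM in BR libraries. It stood above 32.6% to 37.4% of the detected genes in WT libraries and above 54.4% to 59.7% in BR libraries. Its order within the family changed with it: in WT cells CRYBB2 was higher (5.19 ± 1.15 FPKM, SD, n = 4, against 1.51 ± 0.26 for CRYBB1), without overlap, whereas in BR cells CRYBB1 was at 8.20 ± 0.87 FPKM and CRYBB2 at 6.34 ± 1.62 FPKM (SD, n = 4), with overlapping ranges. Without the second BR SI-2 library the log2 fold change of CRYBB1 was 2.41, and the 3 remaining BR libraries averaged 7.87 ± 1.39 CPM.

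**Figure D1:**
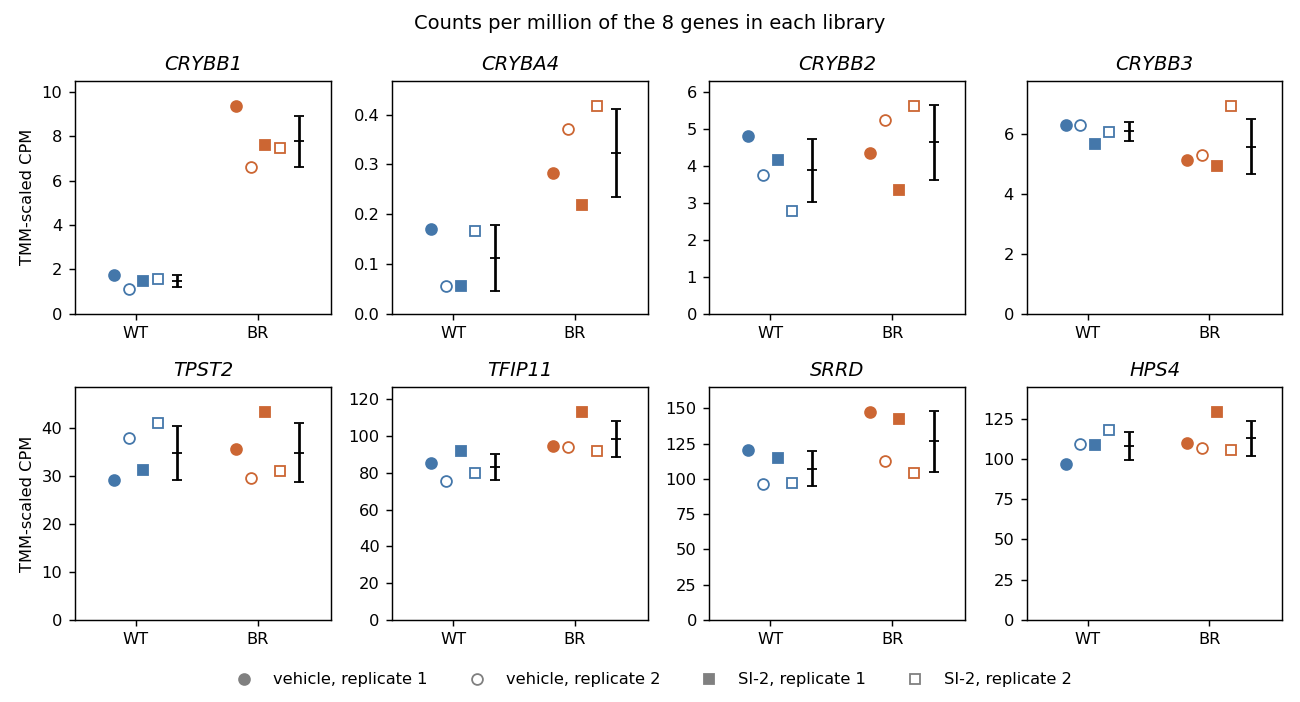
TMM-scaled CPM (y axis, from 0, a separate scale for each gene) of the 8 genes in the 4 WT and 4 BR libraries, with circles for vehicle, squares for SI-2, filled symbols for replicate 1 and open symbols for replicate 2; bars give the mean ± SD of the 4 libraries. CRYBB1 was at 1.11 to 1.76 in WT and 6.63 to 9.37 in BR libraries, whereas the groups overlapped for CRYBB2, CRYBB3, TPST2, TFIP11, SRRD and HPS4, and CRYBA4 was below 0.5 throughout.

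The transcript table divides the CRYBB1 counts between a curated RefSeq model and a predicted one. The curated model had 8.08, 11.8, 18.5 and 23.9 estimated counts in the WT libraries (vehicle, vehicle, SI-2, SI-2) and 95.4, 96.2, 94.2 and 96.2 in the BR libraries in the same order. The predicted model had 22.9, 8.18, 8.50 and 4.10 counts in WT and 70.65, 28.8, 44.8 and 46.8 counts in BR libraries. Both models were therefore higher in every BR library than in every WT library. The share of the curated model ran from 57.4% to 77.0% in BR and from 26.1% to 85.4% in WT libraries, so that the division between the models was not distinguishable between the lines at the depth of the WT libraries. In the BR libraries the curated model was at 5.80 ± 0.11 FPKM and the predicted one at 2.40 ± 0.87 FPKM (SD, n = 4).

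**Figure D2:**
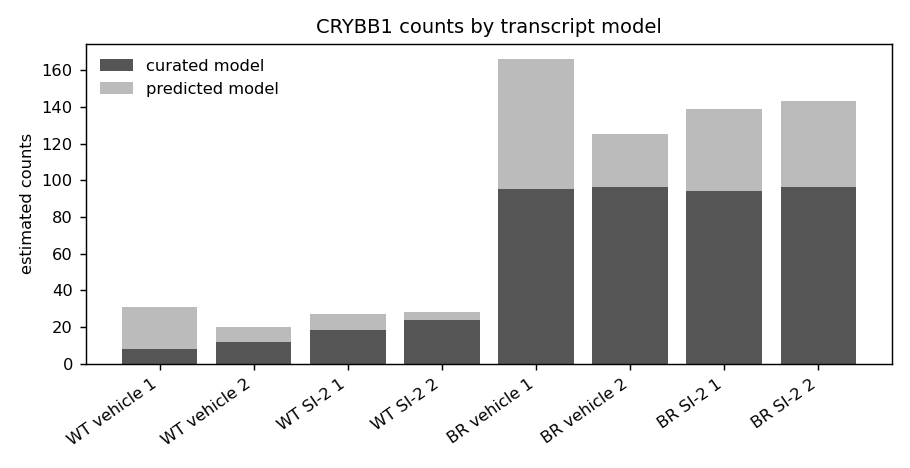
Estimated counts of CRYBB1 (y axis, from 0) in each of the 8 libraries, stacked by the curated and the predicted transcript model. The curated model held 94.2 to 96.2 counts in BR and 8.08 to 23.9 in WT libraries.

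Of the 7 other genes, 6 passed the filter on low counts and were tested between BR and WT cells with the quasi-likelihood test of edgeR over all 13520 genes, in 2 groups of 4 libraries. None of these 6 was called at an adjusted p (Benjamini-Hochberg) under 0.05, where 49 of all genes, or 0.362%, were called. At an unadjusted p under 0.05 there were 1 of the 6 and 1942 of all genes. DESeq2, limma on FPKM and every other setting tried called none of the 6 either.

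CRYBB2, the basic crystallin that is abundant in the adult lens, had 4.83 and 3.77 CPM in WT vehicle, 4.17 and 2.78 in WT SI-2 libraries, and 4.35 and 5.25 in the vehicle and 3.34 and 5.63 in the SI-2 libraries of BR cells. The groups overlapped, with a log2 fold change of 0.26 (SE 0.22, 95% interval -0.22 to 0.74, adjusted p = 0.607). The upper bound of this interval corresponds to 1.67-fold. In annotated transcripts 16.2% of the words of 50 bases of CRYBB2 also occur in the pseudogene CRYBB2P1, which the gene table does not list, so that reads of the pseudogene could have been counted as CRYBB2.

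CRYBB3 had 6.31 and 6.31 CPM in WT vehicle, 5.66 and 6.06 in WT SI-2 libraries, and 5.14 and 5.31 in the vehicle and 4.93 and 6.94 in the SI-2 libraries of BR cells. The highest value belonged to the second BR SI-2 library, and the other 3 BR libraries lay below all WT libraries. The log2 fold change was -0.12 (SE 0.15, 95% interval -0.45 to 0.20, adjusted p = 0.721), and it was -0.25 (adjusted p = 0.587) without that library. All its counts were placed on 2 predicted transcript models, and 1 FPKM of CRYBB3 corresponded to 6.86 times as many counts as 1 FPKM of CRYBB1, so the gene had counts near those of CRYBB2 but only 0.918 ± 0.036 FPKM in WT and 0.860 ± 0.171 FPKM in BR cells (SD, n = 4).

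CRYBA4, the acidic crystallin next to CRYBB1, had 3 and 1 counts in WT vehicle, 1 and 3 in WT SI-2 libraries, and 5 and 7 in the vehicle and 4 and 8 in the SI-2 libraries of BR cells. It was too low for the filter and was not among the genes tested. All 4 BR values were above all 4 WT values, in counts, in CPM and in FPKM. Among the 13520 genes tested, 519, or 3.84%, had every BR library above every WT library, and 589, or 4.36%, had every BR library below. The sums were 24 counts in BR and 8 in WT cells, a ratio of 2.97 per total counts with an exact 95% interval of 1.29 to 7.66 that covers counting error only. In the fit without a filter on low counts its log2 fold change was 1.48 (SE 0.57, adjusted p = 0.341 over 18507 genes, edgeR), so the difference was not called. Of its 2 transcript models, the curated one had 1.25 ± 2.5 counts in BR and 1.75 ± 1.5 in WT libraries, and the predicted one 4.75 ± 3.59 counts in BR and 0.25 ± 0.50 in WT libraries (SD, n = 4). The RefSeq interval of CRYBA4 with its predicted transcripts spans CRYBB1 on the other strand. No word of 50 bases was shared by the GENCODE transcripts of the 2 genes. Words were not counted in the predicted RefSeq model that held most BR counts of CRYBA4, so this does not cover that model. It is not stated whether the counting used strand, and without strand the reads of overlapping genes cannot be told apart.

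The 4 neighbours that are no crystallins were at higher levels. TPST2, the nearest of them, had 29.1 and 37.9 CPM in WT vehicle, 31.1 and 40.9 in WT SI-2 libraries, and 35.5 and 29.6 in the vehicle and 43.2 and 30.9 in the SI-2 libraries of BR cells. Its mean was 34.8 CPM in both lines, with an SD of 5.59 in WT and 6.15 in BR cells (n = 4). The log2 fold change was 0.0013 (SE 0.15, 95% interval -0.33 to 0.33, adjusted p = 0.998).

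TFIP11 had 85.2 and 75.5 CPM in WT vehicle, 92.0 and 80.1 in WT SI-2 libraries, and 94.8 and 94.0 in the vehicle and 113.1 and 91.9 in the SI-2 libraries of BR cells. The groups met at 92 CPM, with 1 BR library marginally below 1 WT library, and did not overlap once the second BR SI-2 library was left out. The log2 fold change was 0.24 (SE 0.10, 95% interval 0.02 to 0.47, unadjusted p = 0.0387, adjusted p = 0.322, edgeR), or 1.18-fold, which did not pass the test over all genes. SRRD had 120.6 and 96.1 CPM in WT vehicle, 115.0 and 97.1 in WT SI-2 libraries, and 147.4 and 112.5 in the vehicle and 142.6 and 104.1 in the SI-2 libraries of BR cells. The groups overlapped, and the log2 fold change was 0.24 (SE 0.13, 95% interval -0.06 to 0.54, adjusted p = 0.444). In SRRD and TFIP11 replicate 1 was above replicate 2 in 4 of 4 conditions, against 3 of 4 in CRYBB1 and 0 of 4 in CRYBB3.

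TFIP11 and SRRD overlap at their ends on opposite strands. Of the words of 50 bases in their annotated transcripts, 22.5% for TFIP11 and 30.9% for SRRD occur on the opposite strand of another transcript, nearly all of them shared between this pair. Their values are therefore not independent if strand was not used in counting. HPS4 had 96.7 and 109.2 CPM in WT vehicle, 108.9 and 118.3 in WT SI-2 libraries, and 110.3 and 106.7 in the vehicle and 129.3 and 105.8 in the SI-2 libraries of BR cells. The groups overlapped, with a log2 fold change of 0.06 (SE 0.10, 95% interval -0.16 to 0.29, adjusted p = 0.802).

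Without the second BR SI-2 library the log2 fold changes were 0.15 for CRYBB2, 0.05 for TPST2, 0.27 for TFIP11, 0.32 for SRRD and 0.09 for HPS4, and the lowest adjusted p of the 6 genes was 0.452. Over all 8 libraries the median log2 fold change among the 6 was 0.15, against 0.0042 for all genes tested. The highest upper bound among the 6 was that of CRYBB2 at 1.67-fold, whereas CRYBB1 was 5.24-fold higher. By mean level per gene length over the 8 libraries the order was SRRD (52.3 FPKM), HPS4 (26.0), TFIP11 (24.3), TPST2 (14.3), CRYBB2 (5.76), CRYBB1 (4.85), CRYBB3 (0.889) and CRYBA4 (0.265). In both lines HPS4 and TFIP11 had overlapping ranges, so their order did not differ beyond the spread.

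**Figure D3:**
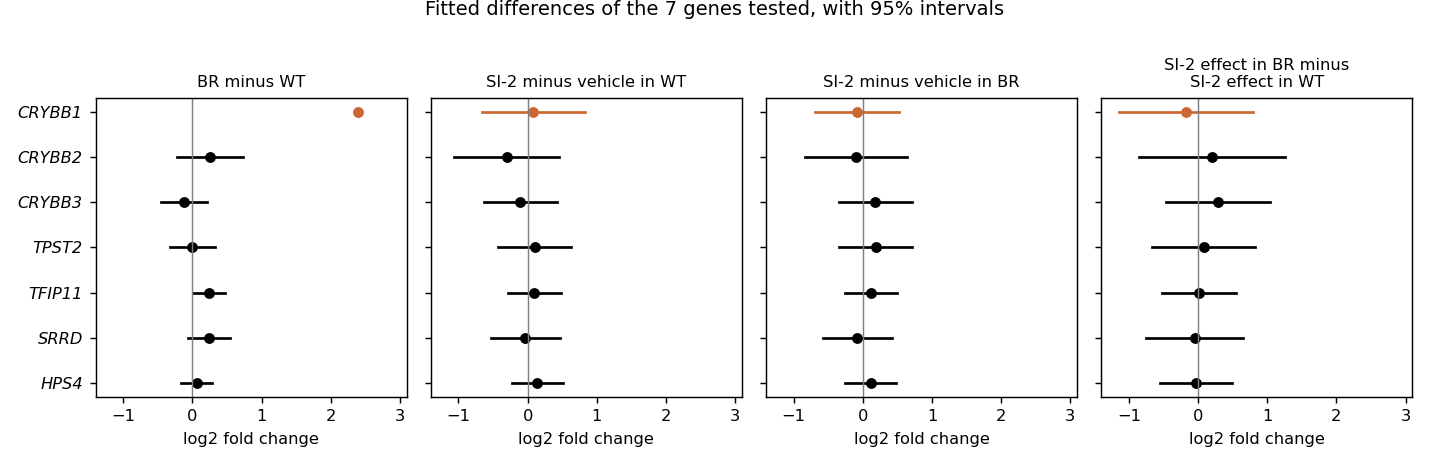
Fitted log2 fold changes (x axis) of the 7 genes that passed the filter, for BR minus WT, SI-2 minus vehicle in each line, and the difference of the SI-2 effects, with 95% intervals as lines; no interval is drawn for CRYBB1 in the first panel, the contrast on which it was chosen. CRYBB1 lies at 2.39 between the lines, and the other 6 genes lie between -0.12 and 0.26.

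The surroundings of CRYBB1 were read more widely, as the 10 listed genes on each side, ordered by the left ends of their RefSeq intervals. In this order CRYBA4 stands on the side of TPST2, because its interval with predicted transcripts begins left of CRYBB1, although the start shown above lies on the other side. Of these 20 genes 14 were tested, 7 were higher and 7 lower in BR cells, and 0 were called (edgeR), against the background of 0.362%. An unadjusted p under 0.05 was held by 3 of the 14 and by 1942 of all 13520 genes. The median log2 fold change of the 14 was -0.03, against 0.0042 for all genes, and it was 0.07 without the second BR SI-2 library. None of the 14 had all BR libraries above all WT libraries, against 3.84% of all genes tested. All BR libraries lay below in 2, against 4.36% of all genes tested. These were GRK3, a receptor kinase gene, with a log2 fold change of -0.39 (SE 0.11, adjusted p = 0.176), and HSCB, an iron-sulfur cluster cochaperone gene, with -0.34 (SE 0.11, adjusted p = 0.233). Both are named here because of their values.

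On the side of CRYBB1 away from TPST2, the nearest listed genes after CRYBA4 are the uncharacterised LOC284898 and LOC105372977, with at most 1 count in any library, and the non-coding LINC01638, with 13 to 30 counts and a log2 fold change of -0.09 (SE 0.28, adjusted p = 0.909). Next come MN1, with 3 to 10 counts, and PITPNB, a phosphatidylinositol transfer protein gene, with a log2 fold change of 0.20 (SE 0.13, adjusted p = 0.502). At the far end of the 10 genes lies XBP1, the transcription factor of the plasma cell secretory programme, with 546 FPKM in WT and 448 FPKM in BR cells and a log2 fold change of -0.31 (SE 0.15, adjusted p = 0.365).

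With 5 genes on each side 6 were tested and the median was 0.13, which is made up mainly of the members themselves, and with 20 on each side 30 were tested, 0 were called and the median was 0.02. On the whole of chromosome 22, 345 of 436 genes other than CRYBB1 were tested, with a median of 0.02, and 2 were called, or 0.580%, against 0.362% of all genes tested. Both were higher in BR cells and far from CRYBB1: IFT27, an intraflagellar transport gene 95 listed genes away, with 1 to 4 counts in WT and 28 to 42 in BR libraries, and RTL6, a retrotransposon-derived gene 232 listed genes away, with 71 to 113 and 195 to 247 counts (log2 fold change 1.28, SE 0.16, adjusted p = 0.00730, edgeR).

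**Figure D4:**
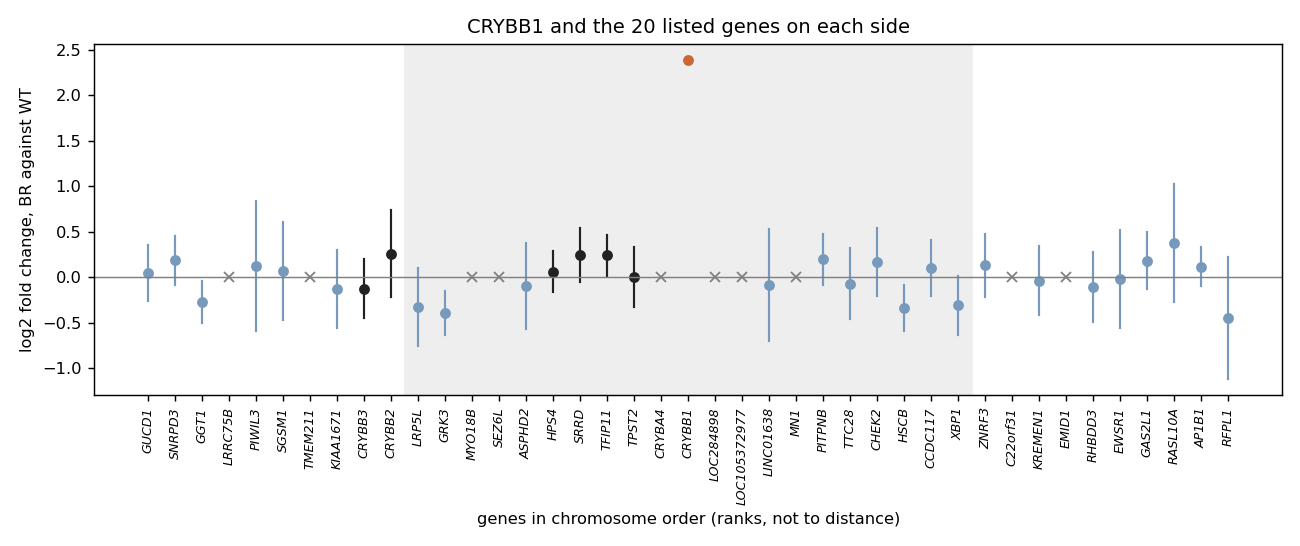
Log2 fold change of BR against WT (y axis) for CRYBB1 (orange) and the 20 listed genes on each side in chromosome order (x axis, ranks and not distances), with members in black, other genes in blue, 95% intervals as lines for all but CRYBB1, and crosses at 0 for genes too low to test. The shaded 10 genes on each side lie between -0.39 (GRK3) and 0.24 (TFIP11), and CRYBB1 lies at 2.39.

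The crystallin family beyond the locus was likewise read from a list. Of 21 crystallin genes 16 were listed in the table, and 8 besides CRYBB1 passed the filter. In BR cells 4 of these 8 had higher and 4 lower values, with a median log2 fold change of 0.11. Of the 8, 0 were called and 1 had an unadjusted p under 0.05 (edgeR). Of all 13520 genes, 49, or 0.362%, were called and 1942 had an unadjusted p under 0.05. The same shares apply to the lists below, and 0 calls among so few genes say little about a list. CRYZ, a quinone reductase that serves as a lens protein in some mammals, was the highest of the 8, with 15.7 to 20.4 FPKM in WT and 17.2 to 34.7 FPKM in BR libraries and a log2 fold change of 0.54 (SE 0.21, adjusted p = 0.281). CRYGS, a gamma-crystallin of the lens, had 0.24 (SE 0.30, adjusted p = 0.736), and CRYZL1, a relative of CRYZ, had -0.06 (SE 0.11, adjusted p = 0.832). CRYBA1 and CRYBA2, the acidic beta-crystallin genes on other chromosomes, had at most 3 counts in any library.

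Genes of lens structure other than crystallins stayed low in both lines. Of 9 listed, 3 were tested and all 3 were lower in BR cells, where 50.9% of all genes tested were higher. Of the 3, 0 were called (edgeR; 0 at an unadjusted p under 0.05). The summed level of the 9 listed genes was 2.23 to 3.85 FPKM in WT and 1.94 to 2.68 FPKM in BR libraries. BFSP2, a beaded filament gene, was the highest (0.901 FPKM, log2 fold change -0.47, SE 0.48, adjusted p = 0.678), followed by TDRD7 (0.75 FPKM, -0.11, adjusted p = 0.880) and LGSN (0.404 FPKM, -0.30, adjusted p = 0.626).

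Among the factors that control lens genes, 9 of 13 listed were tested, 3 were higher and 6 lower, with a median log2 fold change of -0.17. Of the 9, 0 were called (edgeR), against 0.362% of all genes. An unadjusted p under 0.05 was held by 4 of the 9 and by 1942 of all 13520 genes. MAF, a large Maf protein, was well expressed in both lines, with 37.1 to 60.8 FPKM in WT and 55.1 to 67.8 FPKM in BR libraries. The log2 fold change of MAF was 0.32 (SE 0.15, adjusted p = 0.355, edgeR), and whether MAF bound the windows shown above was not tested. Its relative MAFG, a small Maf protein without an activation domain, had -0.31 (SE 0.12, adjusted p = 0.276), SOX2 had -0.17 (SE 0.13, adjusted p = 0.575), and MAFK, another small Maf protein, had 0.16 (SE 0.14, adjusted p = 0.633). HSF4, a heat shock factor of the lens, had all BR libraries below all WT libraries, as had 4.36% of all genes tested. It had 11.8 to 15.9 FPKM in WT and 10.6 to 11.6 FPKM in BR cells and a log2 fold change of -0.44 (SE 0.12, adjusted p = 0.158). With DESeq2, which called 408 genes, HSF4 passed (adjusted p = 0.0330). It also passed with edgeR without the first WT SI-2 library (-0.54, adjusted p = 0.0320), where 125 genes were called.

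Partners of the neighbouring genes were also measured. Of all 13520 genes, 0.362% were called and 1942 had an unadjusted p under 0.05 (edgeR). Of 6 genes of tyrosine sulfation, TPST2 included, 3 were higher and 3 lower and 0 were called (edgeR; 0 at an unadjusted p under 0.05). SLC35B2, the carrier that brings the sulfate donor into the Golgi, had a log2 fold change of -0.05 (adjusted p = 0.803), PAPSS1, which makes that donor, had -0.25 (adjusted p = 0.521), and TPST1, the other sulfotransferase, had a log2 fold change of 0.38 (SE 0.23, adjusted p = 0.471). Of 7 genes of BLOC-3 and its partners 5 were tested and 0 were called (edgeR; 0 at an unadjusted p under 0.05), and HPS1, which forms BLOC-3 with HPS4, had -0.17 (SE 0.10, adjusted p = 0.441). The BLOC-2 genes HPS3, HPS5 and HPS6 had -0.03, 0.31 and -0.09 (adjusted p = 0.920, 0.416 and 0.799). All 4 genes of spliceosome disassembly, the member TFIP11 included, had positive values, as had 50.9% of all genes tested. These were TFIP11 with 0.24, PAXBP1 with 0.19 (SE 0.09, adjusted p = 0.368, edgeR), GCFC2 with 0.13 and DHX15, the helicase that TFIP11 activates, with 0.10 (SE 0.08, adjusted p = 0.607, edgeR). Of the 4, 0 were called (edgeR; 1 at an unadjusted p under 0.05).

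The effect of SI-2 was a comparison that had not been used to choose CRYBB1. In WT cells CRYBB1 was at 1.43 ± 0.46 CPM with vehicle and 1.52 ± 0.05 CPM with SI-2, and in BR cells at 8.0 ± 1.94 CPM with vehicle and 7.54 ± 0.11 CPM with SI-2 (SD, n = 2 each). The difference between treatments was smaller than the spread of the 2 vehicle libraries in each line. In a fit of the 4 conditions over 13896 genes, the log2 fold change with SI-2 was -0.09 in BR cells (SE 0.27, 95% interval -0.70 to 0.52) and 0.09 in WT cells (SE 0.33, 95% interval -0.67 to 0.84), with an adjusted p of 1.0 in both (edgeR). These intervals still allow a change of 1.44-fold upwards or to 0.617-fold in BR cells.

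The distance between the lines was 2.48 (SE 0.31) under vehicle and 2.30 (SE 0.30) under SI-2 on the log2 scale, as a description. Their difference, the test of whether SI-2 acted differently in the 2 lines, was -0.17 (SE 0.43, 95% interval -1.14 to 0.79, adjusted p = 1.0, edgeR). Among the other 6 genes tested, the log2 fold changes with SI-2 ran from -0.10 (CRYBB2) to 0.19 (TPST2) in BR cells and from -0.30 (CRYBB2) to 0.14 (HPS4) in WT cells, and the differences of the effects from -0.05 (SRRD) to 0.29 (CRYBB3). Of the 7 genes 0 were called in any of the 3 comparisons and 0 had an unadjusted p under 0.05 (edgeR). Of all 13896 genes 0, or 0%, were called in BR cells, 0 in WT cells and 0 for the difference, with 167, 74 and 74 at an unadjusted p under 0.05, and with 3, 0 and 0 called by DESeq2. Without the second BR SI-2 library the log2 fold change of CRYBB1 with SI-2 in BR cells was -0.07.

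To find genes with the same pattern as CRYBB1, the log2 CPM profile of each gene over the 8 libraries was centred on its own mean, and the root-mean-square (RMS) difference from the profile of CRYBB1 was taken for 13513 genes. Of the 5 nearest, the 4 described here were PCP4 (RMS difference 0.29), IFT27 (0.46), KRT86 (0.46) and a gene without a name, listed under identifier 107985837 (0.49). They are a description of likeness to a gene chosen for its difference between the lines, and all 4 had every BR library above every WT library, which this choice favours.

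PCP4, a calmodulin-binding peptide known from Purkinje cells, was at 0.879 ± 0.349 CPM in WT and 4.52 ± 1.15 CPM in BR cells (SD, n = 4). KRT86, a hair keratin with close paralogues, was at 1.31 ± 0.33 CPM in WT and 3.64 ± 0.44 CPM in BR cells (SD, n = 4). Of the 3 genes with a name, IFT27 lies on chromosome 22, PCP4 on chromosome 21 and KRT86 on chromosome 12. None of the 6 other members tested came close: their RMS differences ran from 1.06 (SRRD, rank 1207 of the 13519 genes) to 1.25 (CRYBB3, rank 9322). Since the profile of CRYBB1 consists mainly of its difference between the lines, these distances largely restate the log2 fold changes given above.

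**Figure D5:**
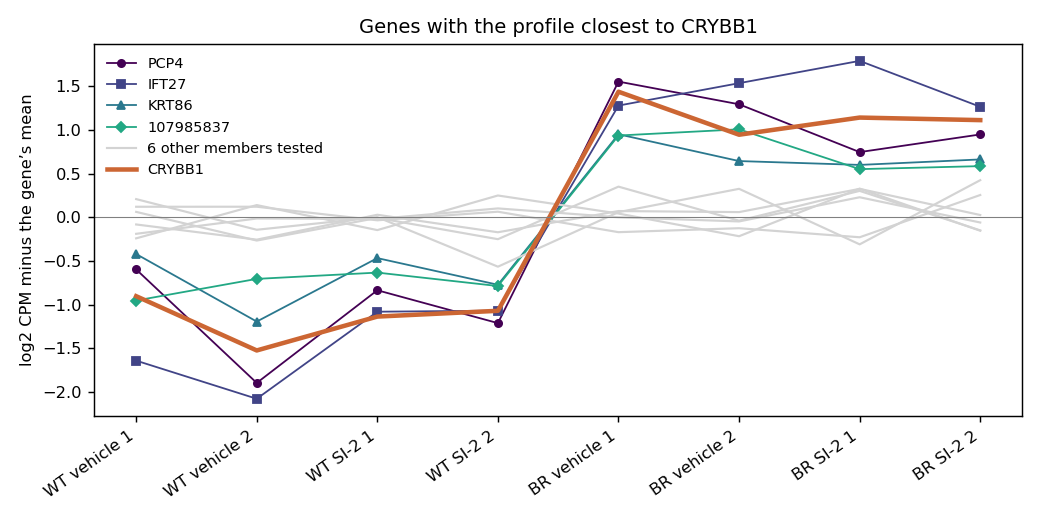
Log2 CPM minus the mean of each gene (y axis) in the 8 libraries (x axis) for CRYBB1 (orange), 4 of the 5 genes with the closest profile and the 6 other members tested (grey); lines join the libraries only to guide the eye. CRYBB1 and these 4 genes lie below 0 in all WT and above 0 in all BR libraries, and the 6 members stay near 0.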

How the data were processed

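RNA of 8 libraries was sequenced on the BGISEQ-500 platform. The authors deposited estimated counts per gene and per transcript, in which reads shared by several genes can be divided, and only 47.9% of genes had whole counts in all libraries. The deposited FPKM, counts scaled by gene length and library size, were computed by the authors. The submitters' processing notes name BWA, Bowtie2, RSEM and the build hg19, without versions. The annotation is not given in the sources used here. Gene order, names and promoter sequences come from RefSeq (GRCh38.p14), where 18267 of 18564 identifiers were found. Promoter coordinates are of that build. The deposited comparisons (DEGseq fold changes, p-values and q-values of SI-2 against vehicle) and 8 columns of averages were not used.

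Estimated counts were rounded, filtered with filterByExpr, scaled by TMM (factors 0.972 to 1.055) and tested with edgeR 4.0.16 (glmQLFit, glmQLFTest, Benjamini-Hochberg adjustment, threshold 0.05) in R 4.3.3. The lines were compared in 2 groups of 4 libraries (13520 genes) and SI-2 in a fit of 4 conditions (13896 genes). Both fits were tested on simulated data. Each standard error was the fitted change divided by the square root of F. The alternatives were upper-quartile scaling, library size only, no filter, DESeq2 1.42.0, limma 3.58.1 on log2(FPKM + 1) and log2(FPKM + 0.1), the replicate block, treatment as a term, each treatment alone, other windows around CRYBB1, and each library left out. Named genes were the members, called genes of the lists and of the 10 genes on each side, otherwise up to 5 per list with the highest FPKM, and the 5 genes most like CRYBB1. Some results are not reported here. The members and lists were chosen with earlier results of these data known. Shared words of 50 bases were counted in GENCODE transcripts on both strands. Python 3.11.15 was used for tables.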

Additional observations from a re-analysis of the deposited data

Results flagged for a closer look

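For the 59 genes examined, each line's 4 libraries were searched for 1 value far from the other 3 by Dixon's criterion for 4 values. Of 118 such groups 18 held one, while chance gives about 1 in 20 groups, or 5.9 here. All values are TMM-scaled CPM, and no explanation was tested.

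Among the members, only TFIP11 held such a value, in the first BR SI-2 library (113.1, against 91.9 to 94.8 in the other BR libraries). The same library was apart in the sulfation genes TPST1 (27.3, against 16.6 to 18.4) and SLC35B2 (103.5, against 114.9 to 115.1). The first BR vehicle library was apart in KRT86 (4.29, against 3.34 to 3.50), IRF4 (1268, against 731 to 820), SLC35B3 (27.0, against 33.5 to 34.2) and DHX15 (234, against 245 to 247). The second BR vehicle library was apart in CRYZL1 (9.66, against 8.71 to 8.87).

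In WT cells HSF4 was low in the first SI-2 library (29.9, against 40.1 to 41.3), IRF4 was high in the first vehicle library (1315, against 877 to 910), and BFSP1 was high in the second vehicle library (0.498, against 0.330 to 0.341). The second BR SI-2 library was apart in COL1A1 (53.8, against 0.113 to 0.265), COL1A2 (8.09, against 0 to 0.212), DCN (7.46, against 0 to 0.0565) and CD2 (0.157, against 0). In WT libraries COL1A2 (0.171), CD2 (0.114) and DCN (0.0554) were flagged at levels of 1 to 3 counts, against 0.0549 to 0.0556 for COL1A2 and 0 for the others.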

How the results depend on the processing

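BR against WT called 49 genes, but 155 with the replicate block, 408 with DESeq2, 0 with vehicle libraries only and 1 with SI-2 libraries only. Leaving out 1 library gave 21 (without WT SI-2 replicate 2) to 125 (without WT SI-2 replicate 1), with 24 without BR vehicle 2, 27 without WT vehicle 2, 29 without BR SI-2 1, 32 without BR SI-2 2 and 86 without BR vehicle 1. SI-2 in BR cells called 0 genes, 3 with DESeq2 and 0 to 67 with 1 library left out (67 without BR SI-2 1). SI-2 in WT cells and the difference of the effects called 0 in every setting. A lone library of a condition was then assumed to vary like the others. The replicate block called none of the 6 members tested besides CRYBB1, and no other setting did, with a lowest adjusted p of 0.143 (SRRD, replicate block). The labels give no pairing by replicate number. Correlations of the replicate deviations were 0.46 for WT vehicle with WT SI-2 and 0.41 for BR vehicle with BR SI-2. Between conditions of different lines they ran from -0.16 to 0.20. Whether equal replicate numbers mark libraries handled together was not tested. CRYBB1 had a log2 fold change of 1.88 on log2(FPKM + 1) and 2.27 to 2.49 in every other setting. The median of the genes around CRYBB1 was 0.13 with 5 genes on each side and -0.080 to 0.073 with 1 library left out, and that of the crystallin genes was 0.55 without a filter, 0.55 with DESeq2 and -0.010 to 0.17 with 1 library left out.

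Of 1179 gene values under alternatives, 1099 kept direction and call, 61 changed sign, 14 lost and 4 gained a call. Signs changed between BR and WT for CRYBB3 (0.017, SI-2 libraries), TPST2 (-0.023 with upper-quartile scaling, -0.00072 with treatment as a term, -0.042 in vehicle libraries), CRYZL1 (0.047), SLC35B2 (0.00061) and LYZ (-0.15), the last 3 in vehicle libraries. They changed on FPKM for SRRD with SI-2 (0.0036 and 0.0036 in BR, 0.054 and 0.055 in WT cells), and without a filter for TFIP11 in the difference of effects (-0.00097). With 1 library left out, BR against WT ran from -0.12 to 0.089 for TPST2, -0.0091 to 0.11 for HPS4, -0.33 to 0.070 for TDRD7, -0.094 to 0.011 for SLC35B3, -0.13 to 0.022 for HPS3, -0.20 to 0.020 for HPS6, -0.24 to 0.072 for TNFRSF17, -0.37 to 0.0086 for IRF4 and -0.28 to 0.11 for LINC01638. SI-2 in BR cells ran from -0.32 to 0.17 for CRYBB1, -0.52 to 0.22 for CRYBB2, -0.083 to 0.40 for CRYBB3, -0.085 to 0.41 for TPST2, -0.052 to 0.26 for TFIP11, -0.33 to 0.13 for SRRD and -0.049 to 0.25 for HPS4. SI-2 in WT cells ran from -0.21 to 0.46 for CRYBB1, -0.10 to 0.31 for TPST2, -0.0060 to 0.20 for TFIP11 and -0.18 to 0.14 for SRRD. The difference of effects ran from -0.55 to 0.11 for CRYBB1, -0.22 to 0.52 for CRYBB2, -0.19 to 0.31 for TPST2, -0.15 to 0.16 for TFIP11, -0.30 to 0.16 for SRRD and -0.19 to 0.11 for HPS4. The cause was not tested. With 20 to 31 counts per WT library, counting error limits the WT level of CRYBB1, and CRYBA4 stayed under the filter.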
